A study of Mus musculus with 4 samples.

Results

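The cells described here are 473 kidney cells that carried transcripts of Slc14a2, Bst1 or Slc4a11, taken from 34789 kept barcodes of 4 droplet-based scRNA-Seq libraries (58660 barcodes in all). Kept barcodes had between 200 and 5000 genes and a mitochondrial share of UMIs under 50%, where a UMI is the molecular tag that counts 1 captured mRNA. A cell was selected with at least 3 UMIs of Slc14a2, Bst1 and Slc4a11 together, at least 5 per 10000 UMIs, and with little or no Aqp2 (under 15 per 10000), Slc12a1 (under 10), Slc34a1 and Lrp2 (together under 10), Emcn and Kdr (under 3 UMIs together) and no Ptprc. The working name for this selection was inner medullary thin limb and duct cells. Each condition gave 1 library, from the kidneys of male C3H mice aged 18 weeks: WT-ND and WT-HFD are SGLT2 wild-type, and SP-ND and SP-HFD (labelled MT) carry the Sweet Pee missense mutation on both alleles of Slc5a2, a germline change that leaves no functional SGLT2. HFD mice ate 60% of their calories as fat for 8 weeks from 10 weeks of age, and the others ate normal diet. The titles of the ND libraries name no diet, and they were read as normal diet because the series names these 2 diets and the other titles carry HFD. The number of mice in a library is not given in the labels, and the share of medulla in the digested tissue is not given in the sources used here. Total depth was 93142028 UMIs in WT-ND and 115117649 in WT-HFD, and in the SP libraries 111617794 (ND) and 90728590 (HFD).

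The thin limbs of the loop of Henle run through the medulla, where salt and urea make the tissue strongly hyperosmotic. The thin descending limb lets water leave the tubule through aquaporin 1 (Aqp1), and the descending limbs of many nephrons also express the UT-A2 form of the urea transporter gene Slc14a2. The inner medullary collecting duct expresses other forms of Slc14a2 (UT-A1 and UT-A3) together with the aquaporins Aqp2, Aqp3 and Aqp4. Cells of both segments survive high osmolality by collecting organic osmolytes, among them sorbitol, which aldose reductase (Akr1b3) makes, and myo-inositol and taurine, which Slc5a3 and Slc6a6 bring in. Bst1 encodes an ectoenzyme that acts on NAD, and Slc4a11 a membrane transporter of the bicarbonate transporter family. Counts per gene do not tell the forms of Slc14a2 apart.

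Most of the 473 cells looked like thin limb, and very few looked like duct. A cell was called thin limb-like or duct-like by the panel with more UMIs and at least 2 (thin limb: 7 genes, among them Aqp1, Fst, Corin, Cdh13 and Epha7; collecting duct: Aqp3, Aqp4, Hsd11b2, Avpr2, Scnn1b, Scnn1g, Fxyd4, Gata3 and Elf5), none of which the selection used. By this measure 397 cells were thin limb-like (83.9%, Clopper-Pearson 95% interval 80.3 to 87.1%), 11 were duct-like (2.33%, 1.17 to 4.12%) and 65 were unresolved. The duct-like count depended on the panels, with 32 cells (6.77%) without Aqp1, 5 (1.06%) without Fxyd4 and 0 of 469 cells at a depth thinned to 1000 UMIs each. The thin limb-like share also moved below its interval. It was 79.9% with at least 3 UMIs of the winning panel, 70.4% without Aqp1 and 68.9% after thinning. The calls are ranges of a count and not types: in 77 cells the panels differed by at most 1 UMI. The thin limb-like share was 88.2% in WT-ND and 71.2% in WT-HFD, and in the SP libraries 86.2% (ND) and 89.2% (HFD), and 7 of the 11 duct-like cells came from WT-HFD. The thin limb panel had a summed level of 8568 CPM in WT-ND and 7706 in WT-HFD, and in the SP libraries 7685 (ND) and 8021 (HFD), where CPM is UMIs per 1000000 non-mitochondrial UMIs pooled over the cells of a library. The duct panel summed to 169, 196, 60.5 and 110 CPM in the same order (WT before SP, and ND before HFD in each), which every run of 4 values below follows. Fxyd4 made up 65.0% of this sum. Elf5, a transcription factor of principal cells, had 0 UMIs in the 473 cells, which allows at most 0.858 CPM at this depth. Intervals and such limits cover counting error only. The word duct in the working name therefore went against the data, and these panels do not place the thin limb-like cells in the inner rather than the outer medulla. A comparison of the 11 duct-like with the thin limb-like cells was not made.

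The limit on Aqp2 decided which duct cells could enter. Of the 473 cells, 423 had no Aqp2 UMI and none lay between 10 and 15 per 10000. Only 10 barcodes met every other criterion and had more Aqp2, at 29.9 to 349 per 10000 with a median of 98.6. All 10 had more duct than thin limb UMIs, 9 held Slc14a2, 3 held Slc4a11 and 1 held Bst1. These came from WT-ND (4 barcodes) and the SP libraries (4 on ND and 2 on HFD). At the lower edge of the selection, 76 cells had 3 to 5 UMIs of the 3 selecting genes and 10 had 5 to 6 per 10000. Just outside it, 11 barcodes had 4 to 5 per 10000 and 40 barcodes had 2 UMIs. The median cell had 14 UMIs of the selecting genes and the highest had 464.

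The libraries were similar in the quality of these cells. The median cell had 6838 UMIs and 2508 genes in WT-ND, 7742.5 and 2538 in WT-HFD, and in the SP libraries 7369 and 2586 (ND) and 7381.5 and 2685.5 (HFD). Mitochondrial UMIs took a median 10.5%, 14.2%, 12.9% and 11.0% in that order, against 31.9% to 35.4% in thick ascending limb cells. Between 54 and 77 barcodes occurred in both libraries of a pair, and no cell of the 473 shared its barcode with another of them. WT-HFD stood apart in 1 respect: 29.7% of its selected cells held 3 or more UMIs of intercalated, distal convoluted tubule, fibroblast and mural, podocyte or immune markers together, against 19.1% in WT-ND and, in the SP libraries, 14.9% (ND) and 19.6% (HFD) (21.1%, or 100 cells, in all).

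The selecting genes chose the cells, so their levels are a description. Slc14a2 stood at 2656 CPM in WT-ND and 3061 in WT-HFD, and in the SP libraries 4054 (ND) and 2773 (HFD). Bst1 stood at 998, 965, 1202 and 1042 CPM, and Slc4a11 at 568, 438, 560 and 561 CPM. SP-ND held the highest Slc14a2 and Bst1, and WT-HFD the lowest Slc4a11. Free RNA in a droplet gives stray UMIs, so detection was also set beside immune cells (Ptprc at least 2 UMIs), after each cell was thinned to 1000 UMIs, which left out 4 of the 473 cells. Slc14a2 was then found in 30.3% of the selected cells (41.0% before thinning, median depth 7314 UMIs) and 0.234% of immune cells (median depth 3524.5). Bst1 was found in 51.4% against 1.98%, and Slc4a11 in 29.2% against 0.409%. The selection required UMIs of Slc14a2, Bst1 and Slc4a11 together. Their higher detection was therefore set by the selection and cannot serve as a check for free RNA. Of genes not used in the selection, Aqp1 was found in 64.0% against 2.28% and Fst in 40.5% against 0.292%. Kap, an abundant proximal tubule transcript, was found in 65.9% of the selected cells and in 78.9% of immune cells. The part of free RNA in the Kap of the selected cells was not tested. Aqp3, which the selection did not use, was found in 1.92% against 3.62%.

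To compare, 2 further populations were taken from every library. Principal cells (1395) had Aqp2 at 15 per 10000 or more, and thick ascending limb cells (4618) had Slc12a1 at 10 per 10000 or more, both with under 3 UMIs of the selecting genes. The Aqp2 gate also took connecting tubule-type cells: Calb1, a calcium-binding protein of the distal nephron, stood at 1734 CPM there, and 75.5% of these cells held 3 or more UMIs of markers of other classes. The 4 libraries served as replicates of the comparison between populations, as a block in edgeR's quasi-likelihood test. The p-values thus set the difference between populations against its variation from library to library, and each library is a different condition. Genes of the gates were not tested. All populations were cut by expression and were therefore bound to differ: by Benjamini-Hochberg adjusted p under 0.05, of 9882 genes tested against principal cells, 18.0% were called higher and 17.9% lower (35.9% in all), and of 11106 genes tested against thick ascending limb cells, 23.8% were higher and 23.9% lower (47.6% in all). The counts below should be read against these shares.

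All 7 thin limb panel genes rose against principal cells and all 9 duct panel genes fell. The lists were chosen with earlier results of these data known, and the populations were gated on Aqp2 or Slc12a1. Panel counts here and against thick ascending limb cells are therefore a description. Aqp1 stood at 5409 CPM in WT-ND and 4422 in WT-HFD, and in the SP libraries 4872 (ND) and 3920 (HFD), against 8.53 to 41.5 CPM in principal cells (log2 fold change 7.95, adjusted p = 3.65e-11). Fst, which encodes the activin-binding protein follistatin, stood at 2527, 2696, 2237 and 3444 CPM, against 6.43 CPM pooled in principal cells (8.85, adjusted p = 1.32e-09). Corin, a protease that activates the precursor of atrial natriuretic peptide, stood at 198, 227, 239 and 206 CPM, and 1 UMI of it was seen in all principal cells. In each of these genes the lowest library of the selected cells was above the highest of the principal cells. Of the 9882 genes tested, 35.9% were called between these populations, and the share without such overlap is not given. WT-HFD held most of the Fst UMIs of principal cells (21.9 CPM), and without that library the fitted change of Fst was 11.32 and that of Aqp1 8.58. Cdh13, the adhesion molecule T-cadherin (146 CPM pooled against 0.371), and Angpt2, a ligand of the endothelial receptor Tie2 (551 against 1.61), showed the same order. Among called genes with at least 50 CPM in 1 of the populations compared and the same direction in all 4 libraries, Lypd2, Uncx, Wnt11 and Sorcs3 were also among the 10 with the greatest rise, at 1364, 121, 128 and 53.2 CPM against 3.46, 0.124, 0.371 and 0 CPM. By the same limits, the 10 genes with the greatest fall were Mcoln3, Elf5, Ccn4, Stc1, Hsd11b2, Grem1, Aqp4, Npy6r, Bmpr1b and Ptges. Hsd11b2, which guards the mineralocorticoid receptor from glucocorticoids, stood at 14.6 CPM against 3817 in principal cells, Aqp4 at 2.00 against 483, and Ptges, a prostaglandin E synthase, at 0.572 against 130. Mcoln3, Elf5 and Ccn4 had 0 UMIs in the selected cells and 253, 68.3 and 56.2 CPM in principal cells. Of the other duct genes, Aqp3 stood at 14.9 CPM against 2607.

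**Figure D1:**
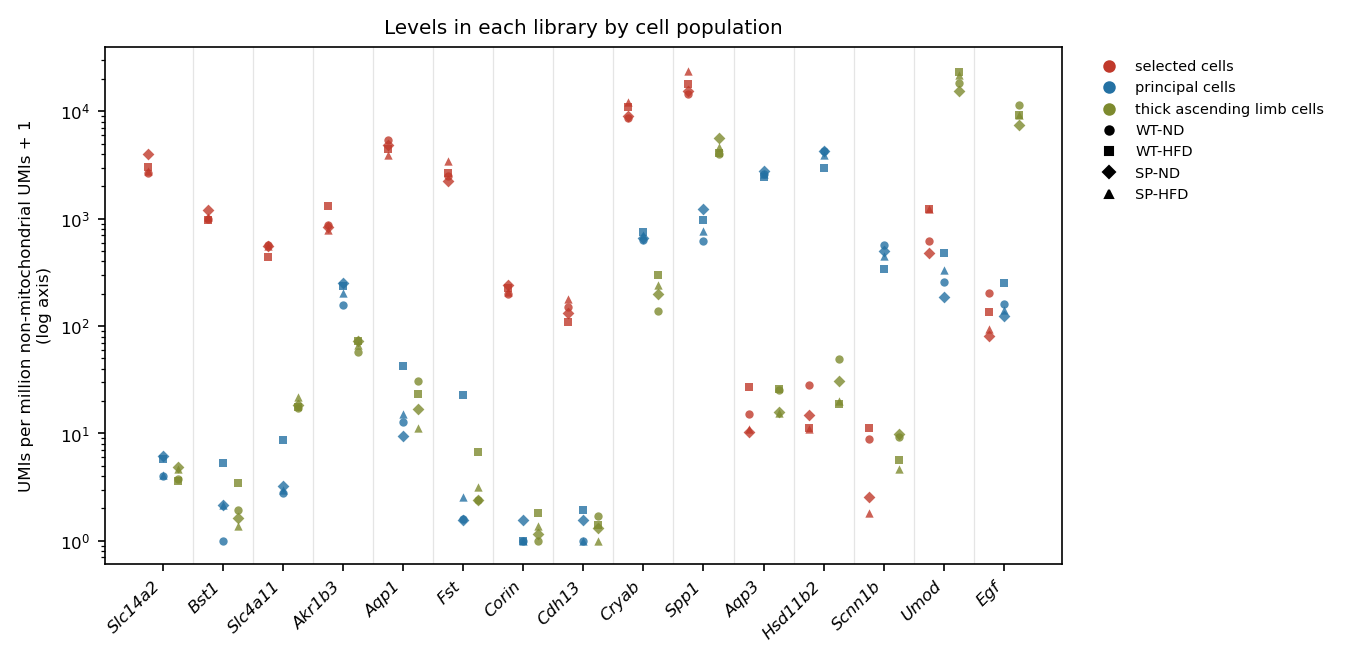
Levels of 15 genes (CPM plus 1, log axis) in the 473 selected cells, principal cells and thick ascending limb cells. Each symbol is 1 library. Aqp1, Fst, Corin and Cdh13 lie far above both other populations in every library, while Aqp3, Hsd11b2 and Scnn1b lie near the level of thick ascending limb cells.

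Against thick ascending limb cells 6 of the 7 thin limb genes rose and 1 fell. Of 7 tested duct genes, Fxyd4 rose (88.0 against 27.0 CPM), Hsd11b2 and Avpr2 fell, and 4 were not called. Fst (2832 CPM against 2.58), Lypd2, Corin, Wnt11, Cdh13 and Angpt2 were again, by the same limits of 50 CPM and direction, among the 10 genes with the greatest rise. So were Cfap52, a cilium protein (118 against 0.282 CPM), Bcat1, an enzyme of branched-chain amino acid breakdown (67.5 against 0.235), and Tert, the catalytic subunit of telomerase. Tert stood at 103 CPM in WT-ND and 123 in WT-HFD, and in the SP libraries 109 (ND) and 90.4 (HFD), against 0.329 CPM pooled in thick ascending limb cells (log2 fold change 8.07, adjusted p = 4.33e-11) and 2.84 CPM in principal cells (5.13, adjusted p = 7.33e-11, or 4.14 without other-class barcodes). All 6 markers of the thick ascending limb fell. Egf went from 9134 to 125 CPM, and Umod, the gene of the most abundant urinary protein, from 19661 to 960 CPM. After thinning, Umod was detected in 34.5% of the selected cells and in 23.0% of immune cells. Tmem207, Cldn16, Defb42, Dusp9, Serpinb1a, Sostdc1, the calcium-sensing receptor Casr, Egf, Sycn and Nccrp1 were the 10 genes with the greatest fall by these limits, at 0.572 to 125 CPM.

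Osmolyte genes did not move as 1 group. Of 12 genes listed for osmolytes and tonicity, 11 were tested against principal cells, where 4 rose and 1 fell (median log2 fold change 0.33, median of all genes -0.01). Against thick ascending limb cells 8 rose and 2 fell (median 0.56, all genes -0.04). The call of Slc38a2 (0.44 against principal cells) was lost with DESeq2, without the library block, without other-class barcodes (0.15) and without SP-ND (0.32) or SP-HFD (0.42). The call of Sord (-0.72 against thick ascending limb cells) was lost with DESeq2 and without WT-ND (-0.46). Akr1b3 stood at 873 CPM in WT-ND and 1312 in WT-HFD, and in the SP libraries 839 (ND) and 782 (HFD). It rose against principal cells (157 to 250 CPM, log2 fold change 2.12, adjusted p = 6.06e-09, but 0.86 without barcodes that carried markers of other classes, which held 1053 of the 1395 principal cells) and against thick ascending limb cells (56.0 to 72.2 CPM, 3.72, adjusted p = 3.32e-11). The taurine transporter Slc6a6 stood at 461, 474, 577 and 571 CPM and rose against both, by 2.19 and 4.67 on the log2 scale. The myo-inositol transporter Slc5a3 took opposite directions: 337 CPM in the selected cells was above the 169 CPM of principal cells (0.90) and below the 1437 CPM of thick ascending limb cells (-2.31). Sgk1, a kinase that responds to salt and mineralocorticoids, did the reverse, at 76.3 CPM against 518 in principal cells and 14.5 in thick ascending limb cells. Nfat5, the transcription factor of the tonicity response, rose against thick ascending limb cells (195 against 123 CPM), and against principal cells the values were 195 and 166 CPM (adjusted p = 0.17).

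The small heat shock protein Cryab, αB-crystallin, stood far above both neighbours. Its level was 8753 CPM in WT-ND and 11055 in WT-HFD, and in the SP libraries 9041 (ND) and 12202 (HFD), against 631 to 759 CPM in principal cells (log2 fold change 3.84, adjusted p = 2.79e-12) and 137 to 296 CPM in thick ascending limb cells (5.50). It was detected in 95.3% of the thinned cells and in 3.97% of immune cells. Spp1, osteopontin, stood at 14492, 18035, 15578 and 24059 CPM, with the highest value in SP-HFD, and rose against both populations (4.30 and 1.85). These 2 genes belong to a list of 10 tubular injury genes. Of the rest of that list, Havcr1 (KIM-1) stood at 2.57 CPM, Krt20 had 0 UMIs, Lcn2 reached at most 12.5 CPM in a library and Sox9 stood at 1.43 CPM. Lcn2 and Clu fell against both populations, and Vcam1 (6.86 CPM) rose against thick ascending limb cells.

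Salt transport genes separated the selected cells from both neighbours. Against thick ascending limb cells, 8 of 13 tested genes for water, urea and ion transport fell and 2 rose. Against principal cells, 9 of 14 tested fell and 4 rose. The potassium channel Kcnj1 stood at 23.4 CPM in WT-ND and 31.8 in WT-HFD, and in the SP libraries 17.1 (ND) and 10.8 (HFD), and fell against both (821 CPM in principal cells and 723 in the thick ascending limb). Bsnd, barttin, fell against both as well (3.72 CPM against 35.6 and 144). Fxyd2, the γ subunit of the sodium pump, stood at 5857 CPM, above principal cells (916) and below the thick ascending limb (7749). Of the epithelial sodium channel subunits, Scnn1a stood at 13.2 CPM against 369 in principal cells, and Scnn1b and Scnn1g at 4.86 and 3.43 CPM against 455 and 436 CPM.

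Cldn2, which makes the tight junction permeable to sodium and water, stood at 228 CPM in WT-ND and 201 in WT-HFD, and in the SP libraries 212 (ND) and 180 (HFD), and rose against principal cells (5.93 CPM, log2 fold change 5.03) and thick ascending limb cells (8.21 CPM, 4.53). Cldn10 and Cldn16, which carry paracellular cations in the thick ascending limb, fell against that segment (34.9 against 1613 CPM and 1.14 against 164 CPM). Cldn4, Cldn7 and Cldn8 rose against the thick ascending limb, at 119, 340 and 252 CPM against 6.01, 145 and 105 CPM. Against principal cells Cldn4 (185 CPM) and Cldn8 (335 CPM) fell, as did Cldn3, and Cldn7 (389 CPM) was not called (adjusted p = 0.105). In all, 5 of 10 tested tight junction genes rose and 4 fell against the thick ascending limb, and 3 of 9 rose and 3 fell against principal cells. The junction scaffold Tjp1 rose against both (156 CPM against 44.2 and 43.4). Of 8 keratin and adhesion genes, 5 rose against the thick ascending limb, among them Krt8, Krt18, Krt19 and Epcam, and 2 fell (Krt7 and Cdh1). Against principal cells 6 of these 8 genes fell and Epcam alone rose.

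The energy genes differed by neighbour. Of 20 genes for oxidative phosphorylation and the citrate cycle, 19 fell against thick ascending limb cells (median log2 fold change -0.87), among them Cox4i1 (2829 CPM against 4351) and Atp5b (1814 against 3066). The exception was Ndufb8, a subunit of complex I, which rose. It stood at 2090 CPM in WT-ND and 2253 in WT-HFD, and in the SP libraries 2192 (ND) and 2461 (HFD), against 1130 CPM pooled in the thick ascending limb and 784 CPM in principal cells (0.90 and 1.49, adjusted p = 5.04e-07 and 9.01e-09). Against principal cells 15 of the 20 genes were not called, 2 rose and 3 fell. The lactate dehydrogenase genes moved apart: Ldhb stood at 452 CPM against 2680 in principal and 2660 in thick ascending limb cells, while Ldha rose against the thick ascending limb (679 against 234 CPM) and stood at 679 against 613 CPM in principal cells (adjusted p = 0.435). Of 15 tested glycolysis genes, 5 rose and 6 fell against the thick ascending limb, and 4 rose and 4 fell against principal cells. Of 11 hypoxia genes, 3 rose and 6 fell against principal cells (median log2 fold change -0.37), and 5 rose and 4 fell against thick ascending limb cells (0.57). The oxygen sensor Egln3 (21.7 CPM against 1.61 and 0.610) and Ankrd37 (30.9 against 14.5 and 5.49) rose against both, and Vegfa, Pdk1, Ndrg1 and Car12 fell against both.

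**Figure D2:**
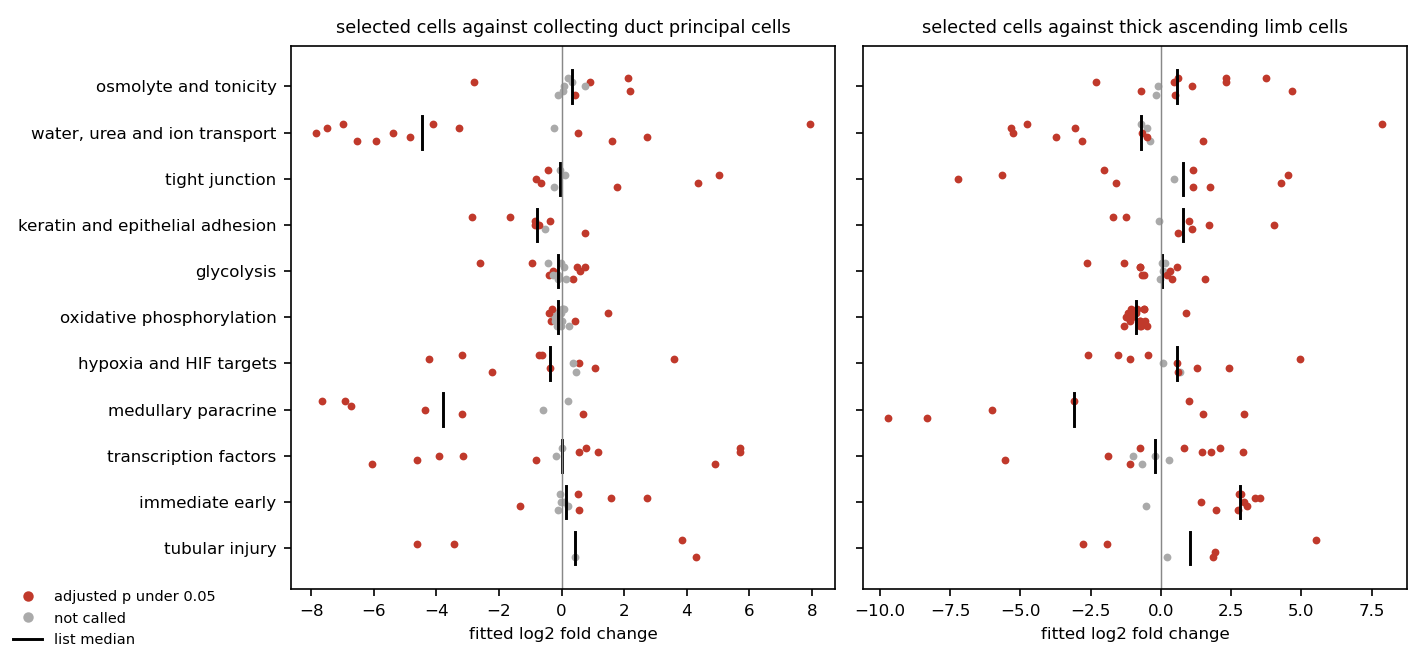
Fitted log2 fold changes of the genes of 11 lists, the selected cells against principal cells (left) and against thick ascending limb cells (right). Each point is a gene, red with an adjusted p under 0.05, and the black bar is the median of the tested genes of the list. Fitted values of genes with 0 UMIs in the selected cells, such as Ptgs2 and Nos1, depend on the prior count of the fit. On the right, 19 of 20 oxidative phosphorylation genes lie below 0 and 9 of 10 immediate early genes are called above 0.

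Of the medullary paracrine genes, 1 of 8 tested rose and 5 fell against principal cells, and 3 of 7 rose and 4 fell against thick ascending limb cells. The prostaglandin receptor genes Ptger1 (1.72 CPM against 189 in principal cells) and Ptger3 (8.00 against 487 CPM in the thick ascending limb) fell in the comparison with the population where each was abundant, and the vasopressin V2 receptor gene Avpr2 fell against both (2.57 CPM against 320 and 21.9). Ptgs1, cyclooxygenase 1, stood at 38.9 CPM, below principal cells (342) and above the thick ascending limb (13.6). Ptger4 rose against both (21.7 CPM against 13.1 and 2.58). Of 13 transcription factors, 6 rose and 5 fell against principal cells, and 5 rose and 4 fell against the thick ascending limb. Irx1, Irx2 and Irx3, homeobox factors of the loop of Henle, stood at 93.2, 82.9 and 137 CPM, above principal cells (2.97, 1.48 and 2.47 CPM). Against the thick ascending limb (187, 130 and 47.5 CPM) Irx1 and Irx2 fell and Irx3 rose. Pax2 and Pax8, which the nephron and duct lineages both use, rose against both populations, but the call of Pax8 against principal cells was lost without barcodes that carried markers of other classes (0.50 in place of 1.17). Gata3, Tfcp2l1 and Tfap2b fell against principal cells (5.15, 108 and 8.58 CPM against 342, 931 and 205 CPM).

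Markers of other cell classes differed in level and by library. Thick ascending limb markers, mostly Umod (68.0% of their UMIs), summed to 1080, 1732, 788 and 1720 CPM in the selected cells, beside 557, 966, 484 and 689 CPM in principal cells. Against principal cells 3 of 5 tested rose (Umod, with a log2 fold change of 1.44, Cldn19 and Ppp1r1a) and 2 fell (Kng2 and Egf). The part of free RNA in this was not tested. Urothelial markers summed to 7.82 CPM in WT-ND and 42.1 in WT-HFD, and in the SP libraries 37.2 (ND) and 52.2 (HFD) (Psca was the most abundant and Upk2 had 0 UMIs), and endothelial markers to at most 62.0 CPM, in SP-ND. Parietal epithelium markers were led by Ncam1 (70.0% of their UMIs), at 26.1, 40.9, 40.3 and 30.7 CPM. Erythroid markers reached at most 2.27 CPM. Fibroblast and mural markers summed to 27.4, 87.5, 9.31 and 13.3 CPM, with Col1a1 at 0 UMIs, podocyte markers to 83.4, 183, 21.7 and 97.0 CPM, and immune markers, mostly Cd74, to 6.51, 115, 21.7 and 172 CPM. Intercalated cell markers summed to 56.0, 256, 38.8 and 53.9 CPM, with Atp6v1g3 as 67.9% of them and the highest sum in WT-HFD. Distal convoluted tubule markers, mostly Slc12a3, summed to 416, 374, 118 and 47.3 CPM. Proximal tubule markers, mostly Kap, summed to 3335, 5366, 895 and 1467 CPM, and none of the 11 was called against principal cells. No doublet caller was run, and how far the gates limited doublets was not tested.

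The 473 cells fell into 2 kinds by which selecting gene led. In 134 cells (28.3%) Slc14a2 had more UMIs than Bst1 and Slc4a11 together, in 337 cells it had fewer, and 2 cells were equal. This division was made after the values had been seen, so it is described without a test. Slc14a2 made up 90% or more of the selecting UMIs in 100 cells and 10% or less in 303 cells, and 11 cells lay between 40% and 60%. Bst1 with Slc4a11 was the most frequent combination (211 cells, 44.6%), followed by Slc14a2 with Bst1 (92 cells), Bst1 alone (54), Slc14a2 alone (51), all 3 genes (51) and Slc4a11 alone (14). No cell held Slc14a2 with Slc4a11 and without Bst1. Bst1 was present in 83 of the 134 Slc14a2-led cells and in 323 of the 337 Bst1/Slc4a11-led cells.

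**Figure D3:**
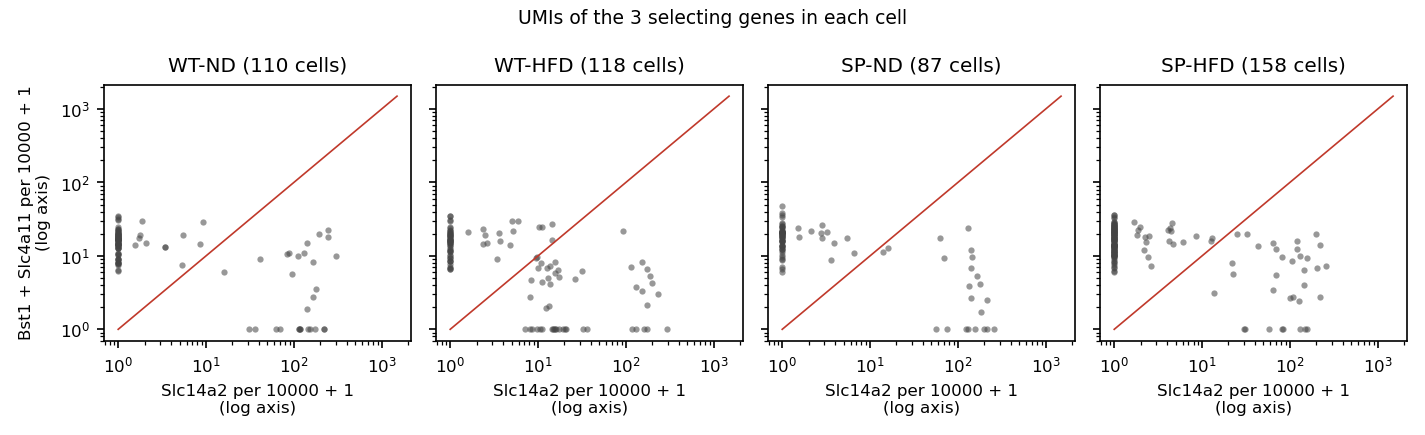
UMIs per 10000 (plus 1, log axes) of Slc14a2 and of Bst1 plus Slc4a11 in each selected cell, 1 panel per library. The red line marks equal levels, with Slc14a2-led cells below it. Most cells lie against the left edge with no Slc14a2, and in WT-HFD a group of Slc14a2-led cells sits at low Slc14a2 (median 16.1 per 10000, against 102, 129 and 140 in the other libraries).

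Each kind had its own genes. Of 1997 genes with at least 100 CPM in a kind, 98 were at least 2-fold higher in Slc14a2-led cells and 175 at least 2-fold higher in Bst1/Slc4a11-led cells in the same direction in all 4 libraries, together 13.7%. The thin limb genes divided between the kinds. Corin stood at 1075 CPM in WT-ND and 788 in WT-HFD, and in the SP libraries 979 (ND) and 866 (HFD) in Slc14a2-led cells, and at 2.05 to 5.40 CPM in Bst1/Slc4a11-led cells. Fst stood at 3089, 3727, 2950 and 4488 CPM in Bst1/Slc4a11-led cells, and in Slc14a2-led cells at 0 CPM in WT-ND and SP-HFD, 6.40 CPM in SP-ND and 211 CPM in WT-HFD. Aqp1 stood at 6574, 6110, 6427 and 5063 CPM in Bst1/Slc4a11-led cells and at 165, 171, 12.8 and 153 CPM in Slc14a2-led cells. No library of 1 kind overlapped with a library of the other in these 3 genes. The share of all genes without such overlap is not given here. Corin was seen in 94 of 134 Slc14a2-led and in 8 of 337 Bst1/Slc4a11-led cells, Fst in 5 and 212, and Aqp1 in 22 and 303.

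The genes named for each kind were chosen after their values were seen. In Slc14a2-led cells, the protease Prss12 (295 CPM against 0.751), neuropeptide Y (Npy, 225 against 7.88), the coagulation starter F3, tissue factor (257 against 20.6), Uncx (384 against 39.4), Angpt2 (1441 against 275), Wnt11 (335 against 64.6), Bmp3 (156 against 21.0) and the prostaglandin transporter Slco2a1 (342 against 63.8) were higher in every library. Cryab (15306 against 9101 CPM), Slc5a3 (567 against 266) and Cldn8 (567 against 154) were higher as well. Genes that led with Bst1 and Slc4a11 included Cdh13 (190 against 4.83 CPM), the carbonic anhydrase Car14 (516 against 15.7), Lypd2 (1764 against 68.9), Hsd11b1, which regenerates active glucocorticoid (423 against 16.9), angiotensinogen (Agt, 161 against 6.04), Spp1 (23618 against 3731), Cldn2 (256 against 27.8) and Fxyd2 (7164 against 1649). Akr1b3 was also higher there (1081 against 500 CPM), as were Slc2a1, Eno1, Pgk1 and Ldha and, in every library, all 20 oxidative phosphorylation genes, for example Cox8a (3496 against 1383). Some of the 20 were less than 2-fold higher, for example Ndufs1 (126 against 85.8 CPM). The share of all genes that were higher there in every library is not given. Pooled over libraries, Kap (4277 against 1307 CPM) and Atp6v1g3 (201 against 28.5 CPM) were higher in Slc14a2-led cells. The difference was largest in WT-HFD, where Kap stood at 10471 against 1411 CPM and Atp6v1g3 at 577 against 22.5 CPM. In the other libraries Kap stood at 3534 against 2460 CPM in WT-ND, 486 against 487 in SP-ND and 1212 against 888 in SP-HFD, and Atp6v1g3 at 57.3 against 33.4, 32.0 against 22.5 and 28.5 against 32.4 CPM. Without barcodes that carried markers of other classes, the log2 ratio of Kap went from 1.71 to 0.31 and that of Atp6v1g3 from 2.81 to 0.20, while those of Corin (7.90 and 7.89) and Aqp1 (-5.46 and -5.29) changed little. The kinds differed in depth, with a median of 6192.5 UMIs in Slc14a2-led and 7914 in Bst1/Slc4a11-led cells, and in mitochondrial UMIs (7.95% and 12.4%). The part of depth in these differences was not tested.

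**Figure D4:**
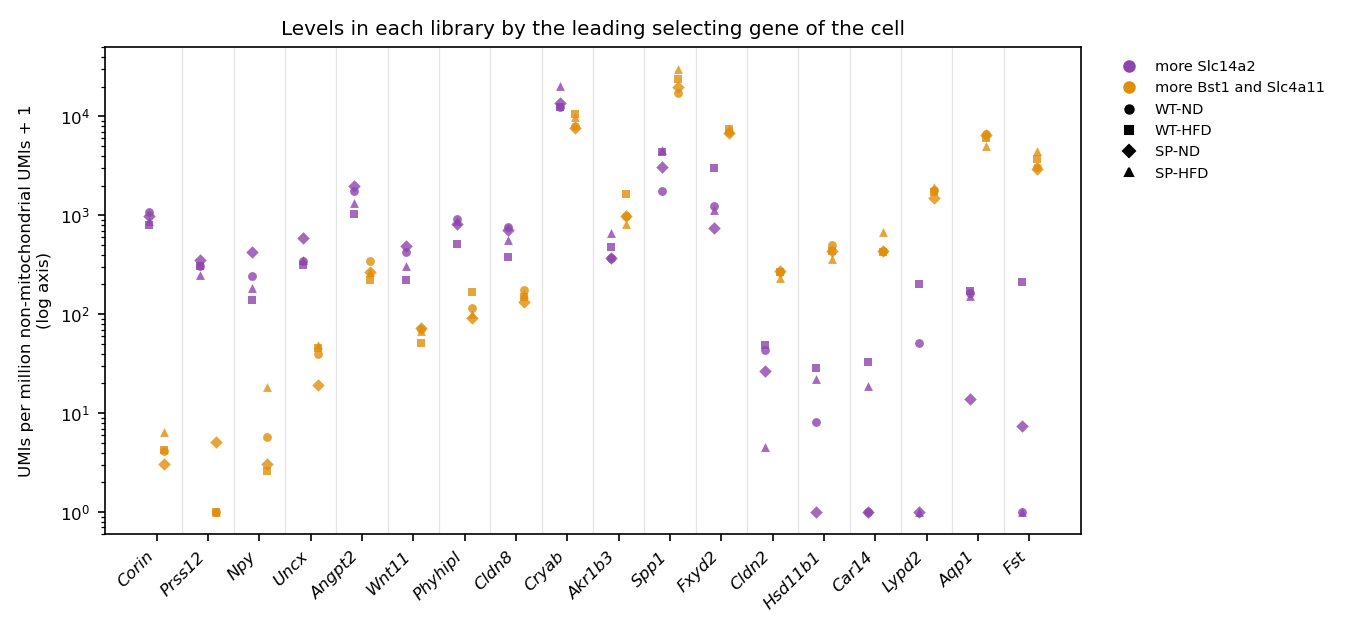
Levels of 18 genes (CPM plus 1, log axis) in cells with more Slc14a2 (purple) and cells with more Bst1 and Slc4a11 (orange). Each symbol is 1 library. Corin, Prss12 and Npy are high in purple and Aqp1, Fst, Lypd2 and Car14 in orange.

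The Slc14a2-led cells of WT-HFD stood apart from those of the other libraries. They made up 41.5% of the selected cells there (32.5 to 51.0%), against 26.4% in WT-ND and, in the SP libraries, 25.3% (ND) and 21.5% (HFD). Their median Slc14a2 level was 16.1 per 10000, against 129, 140 and 102 per 10000. Only 23 of 49 held Corin, against 25 of 29 in WT-ND and, in the SP libraries, 20 of 22 (ND) and 26 of 34 (HFD), and 22 of 49 held 3 or more UMIs of intercalated cell markers, against 1 of 29, 0 of 22 and 3 of 34. Without barcodes that carried markers of other classes, the share in WT-HFD was 24.1% (15.4 to 34.7%), beside 27.0% in WT-ND and, in the SP libraries, 27.0% (ND) and 17.3% (HFD), and the share over all libraries was 23.1%.

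The share of selected cells among kept barcodes was 1.01% in WT-ND (110 of 10869, interval 0.832 to 1.22%), 1.22% in WT-HFD (118 of 9700, 1.01 to 1.46%), 1.29% in SP-ND (87 of 6754, 1.03 to 1.59%) and 2.12% in SP-HFD (158 of 7466, 1.80 to 2.47%). On this denominator SP-HFD lay above the other intervals, which cover counting error alone. The kept barcodes are those within the gene and mitochondrial limits, and 32.7% and 33.2% of all barcodes in WT-ND and WT-HFD, and 49.8% and 42.1% in SP-ND and SP-HFD, had 50% or more mitochondrial UMIs. As a share of selected, principal and thick ascending limb cells together, the values were 6.95% (5.75 to 8.31%), 7.79% (6.49 to 9.26%), 5.52% (4.44 to 6.76%) and 8.72% (7.46 to 10.1%). Here the SP-HFD interval overlapped both WT intervals and lay above that of SP-ND. With 1 library per condition, an effect of diet or genotype and a difference between single libraries, such as the piece of kidney digested, cannot be told apart, and no test between conditions was made.

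**Figure D5:**
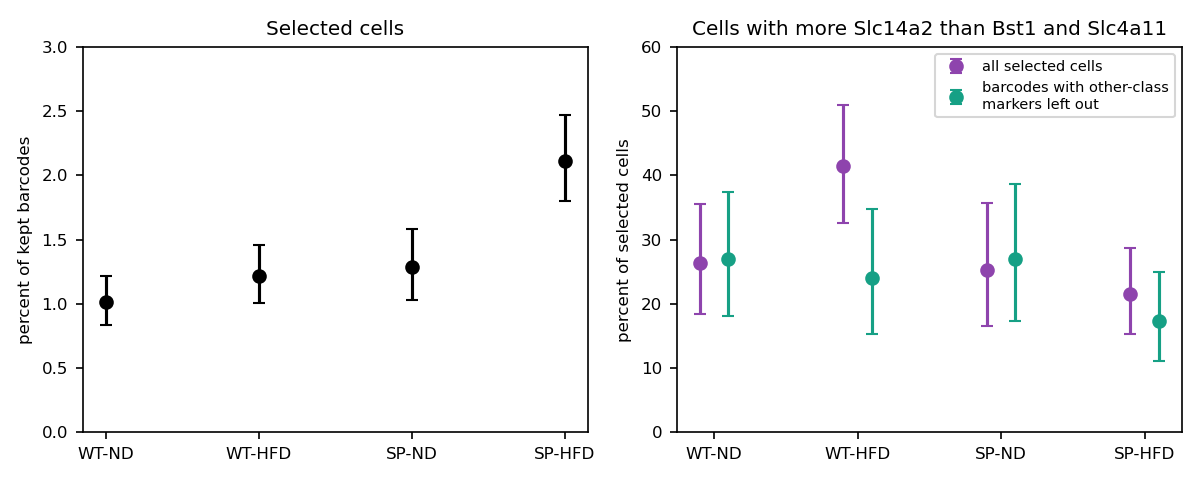
Left, selected cells as a percent of kept barcodes in each library. Right, Slc14a2-led cells as a percent of selected cells, for all cells (purple) and without barcodes that carry markers of other classes (green). Bars are Clopper-Pearson 95% intervals. SP-HFD is highest on the left at 2.12%, and on the right the WT-HFD value goes from 41.5% to 24.1%.

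For diet, levels of the selected cells were compared within each genotype, with ratios and exact conditional binomial intervals that cover counting error only. For some of the genes, values of principal and thick ascending limb cells are given as well. Of 1916 genes that reached 100 CPM in 1 of the libraries compared, 1.36% were at least 2-fold higher and 2.4% at least 2-fold lower in WT-HFD than in WT-ND, and of 1908 genes 0.681% were higher and 1.26% lower in SP-HFD than in SP-ND. The last of these counts, 24 genes, was 37 without barcodes that carried markers of other classes and 37 with the mean over cells. Hist1h1c, a linker histone gene, was lower in both HFD libraries. It stood at 1649 CPM in WT-ND and 308 in WT-HFD (log2 ratio -2.42, -2.62 to -2.23), and at 1604 in SP-ND and 721 in SP-HFD (-1.15). In principal cells the 4 levels were 620, 122, 635 and 216 CPM, and in thick ascending limb cells 264, 54.0, 342 and 83.4 CPM. Both HFD libraries thus lay below both ND libraries in all 3 populations, and the share of all genes with this order is not given. The linker histone genes Hist1h1d (88.6 and 3.41 CPM in WT-ND and WT-HFD, 169 and 24.0 CPM in the SP libraries) and H1f0 (972, 182, 782 and 283 CPM) were also lower in both HFD libraries, and in principal cells they stood at 35.1, 4.29, 74.5 and 7.83 CPM and at 395, 219, 440 and 297 CPM.

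Cdkn1a, Irf1 and Mt2 were also lower in both HFD libraries. Cdkn1a, the cell cycle inhibitor p21, stood at 168 CPM in WT-ND and 31.8 in WT-HFD, and in the SP libraries 200 (ND) and 48.9 (HFD), in principal cells at 16.1, 5.25, 13.1 and 4.31 CPM, and in the thick ascending limb between 12.7 CPM (WT-HFD) and 29.9 CPM (SP-ND). Irf1, an interferon response factor, stood at 279, 38.7, 105 and 45.6 CPM, beside 246, 54.4, 109 and 67.7 CPM in principal cells and 10.8, 11.3, 10.5 and 7.07 CPM in the thick ascending limb. The metallothionein Mt2 stood at 219, 42.1, 147 and 30.7 CPM, and was lower in the HFD library of both genotypes in all 3 populations. The differences between populations in these ratios were not tested.

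All 10 immediate early genes were lower in WT-HFD than in WT-ND and in SP-HFD than in SP-ND. Their median log2 ratio was -1.20 in WT and -0.63 in SP, beside medians of 0.04 and 0.05 over all genes, and 7 and 1 of the 10 were at least 2-fold lower. Fos stood at 3392 CPM in WT-ND and 1706 in WT-HFD, and in the SP libraries 2579 (ND) and 1667 (HFD), Egr1 at 2111, 811, 1777 and 892 CPM and Atf3 at 2448, 786, 1824 and 884 CPM. Both ND libraries lay above both HFD libraries in each of these 3 genes, which are examples. How many of all genes had this order is not given here. The medians in principal cells were -0.60 and 0.12, and in the thick ascending limb 0.18 and -0.89. Across populations, 9 of the 10 rose in the selected cells against the thick ascending limb, for example Fos (2224 against 294 CPM, log2 fold change 2.87, adjusted p = 1.24e-09), and against principal cells 4 rose and Ier3 fell, with the call of Fos lost without other-class barcodes (0.33 in place of 0.52).

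In WT, 5 of 6 osmolyte genes with at least 100 CPM were higher in HFD (median log2 ratio 0.63) and in SP 4 of 6 (0.28), with 1 and 0 of them past 2-fold. Principal cells had medians of 0.58 (6 of 7 genes higher) and 0.41 (5 of 7), and thick ascending limb cells of 0.35 and -0.19. Slc5a3 stood at 185 CPM in WT-ND and 416 in WT-HFD, and in the SP libraries 222 (ND) and 439 (HFD) (log2 ratios 1.17, 0.89 to 1.46, and 0.98, 0.71 to 1.26). Its HFD libraries both lay above both ND libraries, an order not counted here over the list or over all genes. In principal cells Slc5a3 had the same order of diets (99.9, 233, 127 and 190 CPM), and in the thick ascending limb it stood at 1149, 1404, 1745 and 1331 CPM. Akr1b3 was highest in WT-HFD at 1312 CPM (0.59, 0.45 to 0.73, against WT-ND) and stood at 782 CPM in SP-HFD against 839 in SP-ND (-0.10, -0.26 to 0.05). Cldn7 (543, 248, 380 and 255 CPM) and Krt18 (283, 140, 244 and 152 CPM) were lower in both HFD libraries, as they were in principal cells (507, 312, 416 and 357 CPM, and 441, 232, 505 and 259 CPM). Pck1, an enzyme of gluconeogenesis in the proximal tubule, was higher in both (35.2, 274, 27.9 and 107 CPM), and had the same order in principal cells (40.4, 201, 20.5 and 135 CPM) and thick ascending limb cells (54.4, 199, 30.2 and 140 CPM). The next highest ratios of WT-HFD to WT-ND, those of Klk1 (123 against 18.2 CPM), Cdkn1c (141 against 28.7 CPM) and Atp6v1g3 (182 against 37.8 CPM), turned negative without barcodes that carried markers of other classes (-0.72, -0.42 and -0.79).

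For genotype, fewer genes passed the same fold: of 1896 genes, 0.264% were higher and 0.686% lower in SP-ND than in WT-ND, and of 1878 genes, 0.266% were higher and 1.12% lower in SP-HFD than in WT-HFD. Of these counts, only that of genes lower in SP-ND (13) stayed within 1.5 times under the alternatives tried. The 5 higher genes of SP-ND became 11 without barcodes that carried markers of other classes and 8 with the mean over cells, and in SP-HFD the 5 higher genes became 3 and 10 and the 21 lower genes 3 and 40. Kap stood at 2655 CPM in WT-ND and 487 in SP-ND (log2 ratio -2.45), with ratios of -2.60 in principal and -2.86 in thick ascending limb cells, and Cyp2e1 at 103 and 12.4 CPM (-3.05). Slc12a3, the sodium chloride cotransporter of the distal convoluted tubule, stood at 281 CPM in WT-ND and 228 in WT-HFD, and in the SP libraries 76.0 (ND) and 13.3 (HFD), and its ratio of SP-ND to WT-ND went from -1.89 to 0.13 without barcodes that carried markers of other classes. Apoe was higher in SP-ND (158 against 39.1 CPM, 2.02, 1.42 to 2.66), and this ratio was 2.13 without those barcodes. Hist1h1c was higher in SP-HFD than in WT-HFD (721 against 308 CPM, 1.23, 1.03 to 1.43), with 0.83 in principal and 0.63 in thick ascending limb cells.

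Immunoglobulin transcripts were highest in SP-HFD among the selected cells. Igkc stood at 37.8 CPM in WT-ND and 127 in WT-HFD, and in the SP libraries 15.5 (ND) and 4391 (HFD), with Jchain and Igha at 927 and 1213 CPM in SP-HFD. In principal cells Igkc was highest in WT-HFD (454 CPM, against 162 in SP-HFD), as it was in the thick ascending limb (1610 against 189 CPM). In SP-HFD 3 or more immunoglobulin UMIs were held by 13 of 34 Slc14a2-led and 47 of 124 Bst1/Slc4a11-led cells, against 7 of 49 and 12 of 67 in WT-HFD. The log2 ratio of Igkc in SP-HFD to WT-HFD was 5.11 in all selected cells, 0.77 without barcodes that carried markers of other classes and 0.35 in Bst1/Slc4a11-led cells alone. Plasma cell markers beyond these genes were not tested.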

How the data were processed

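Kidney cells of 4 mouse libraries were measured by droplet scRNA-Seq (10x 3′ v3.1). The deposited matrices, made by the authors with Cell Ranger, hold raw UMI counts (version 6.1.2 per the file headers, 2.1.1 in the submitters' processing notes, which name build mm10), for 32285 genes and at least 500 UMIs per barcode. No correction for free RNA or doublets had been applied to these counts.

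Cells were selected as the report describes. The members, gene lists and the division into kinds were chosen with earlier results of these data known. UMIs were summed per library and population, and CPM is per 1000000 non-mitochondrial UMIs. Populations were compared with edgeR 4.0.16 (quasi-likelihood, TMM, filterByExpr, library block, Benjamini-Hochberg adjustment), without gate and mitochondrial genes, and the fit was tested on simulated data. Named genes were the 10 with the greatest change in each direction among those called, with at least 50 CPM in 1 of the populations compared and changed the same way in all 4 libraries, the genes of the lists, and for libraries the 5 with the greatest ratio in each direction among genes with at least 100 CPM in 1 of 2 libraries. Genes named between kinds, and a few others, were chosen after their values were seen. Some genes of the lists are not reported here. Levels carry exact Poisson and ratios conditional binomial intervals. DESeq2 1.42.0, no filter, other limits on cells and leaving out each library were alternatives. Python 3.11.15 and R 4.3.3 were used.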

Additional observations from a re-analysis of the deposited data

How the results depend on the processing

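Some limits on cells moved results. Without barcodes that carried markers of other classes, the Slc14a2-led share was 23.1% over all libraries and 24.1% in WT-HFD. Against principal cells, 982 genes were then higher and 1052 lower, of 6496 tested in place of 9882. Of the 3550 main calls, 1693 were also called in this setting. DESeq2 called 1154 genes lower than in principal cells. The thin limb-like share was 79.9% with at least 3 UMIs of the winning panel, 70.4% without Aqp1 and 68.9% after thinning, and the duct-like share 6.77% without Aqp1, 1.06% without Fxyd4 and 0 after thinning. Leaving out 1 library at a time gave 1457 to 1662 higher and 1409 to 1617 lower genes against principal cells, and 2241 to 2440 and 2266 to 2426 against thick ascending limb cells.

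Between libraries, counts at 2-fold moved more. In SP-HFD against SP-ND, 37 genes were lower without other-class barcodes and 37 with the mean over cells. In SP-ND against WT-ND, 10 were higher under 30% mitochondrial UMIs, 11 without other-class barcodes and 8 with the mean over cells. In SP-HFD against WT-HFD, 3, 10 and 3 were higher and 3, 40 and 8 lower without other-class barcodes, with the mean over cells and in Bst1/Slc4a11-led cells. The log2 ratio of WT-HFD to WT-ND reversed for Klk1 (2.75 to -0.72 without other-class barcodes and -0.50 in Bst1/Slc4a11-led cells), Cdkn1c (2.30 to -0.42 without other-class barcodes) and Atp6v1g3 (2.27 to -0.79 and -0.57). Slc12a3 in SP-ND against WT-ND reversed from -1.89 to 0.13 and S100g in SP-HFD against WT-HFD from -2.71 to 0.41 without other-class barcodes, and Atp6v1g3 there from -2.53 to 0.53 in Bst1/Slc4a11-led cells. The cause was not tested, except that these settings hold fewer cells. Thinning to 1000 UMIs and 1 library per condition limit what can be seen of rare duct-like cells and of diet or genotype. Between populations the library was the block of the fit, and without it 3276 genes were called against principal and 5079 against thick ascending limb cells, in place of 3550 and 5291. Between conditions, no paired fit was made, and each condition has 1 library.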
